A study of Mus musculus with 6 samples.

Results

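RNA bisulfite sequencing (RNA BS-seq) of cortical neurons was examined for the mitochondrial mRNAs that encode subunits of respiratory complexes III, IV and V, namely mt-Co1, mt-Co2, mt-Co3, mt-Cytb, mt-Atp6 and mt-Atp8. Bisulfite turns unmethylated cytosines into uracil, which is read as T, while 5-methylcytosine (m5C) and any cytosine that escaped conversion are still read as C. The members were all cytosines on the plus strand of the mitochondrial genome that were covered by at least 20 reads and carried the name of 1 of these 6 genes in the deposited calls. Here and in what follows, values of the 6 libraries stand in the order 0 h, 2 h and 6 h, with replicate 1 before replicate 2. The libraries held 616, 617, 658, 621, 661 and 641 member positions. Taken over all libraries there were 702 member positions, of which 605 were covered in all 6, among 4920022 cytosines of any chromosome covered by at least 20 reads in at least 1 library.

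The neurons came from the cortex of E16.5 wild-type C57BL/6 embryos, with both sexes pooled. All cultures were silenced at day 6 with 1 µM tetrodotoxin and 100 µM DL-AP5, which block sodium channels and NMDA receptors, and were depolarized the next morning with KCl at 55 mM. Exposure lasted 2 h or 6 h, and the cultures of 0 h had been silenced as well. The 3 comparisons are called early (2 h against 0 h), full (6 h against 0 h) and late (6 h against 2 h). Poly(A) RNA was selected in 2 rounds, and each time point had 2 libraries, which the study calls biological replicates. Nothing states whether replicates came from separate dissections, so that p-values measure the spread between these libraries. Neuronal marker genes were covered in every library (Tubb3, Map2, Snap25, Neurod6 and Stmn2, 5 of 6 listed markers), while no marker of oligodendrocytes, microglia or vessels and 1 of 4 astrocyte markers (Slc1a3) reached the 20 cytosines of 20 reads that were required of a gene in all 6 libraries.

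The mitochondrial genome is transcribed into long precursors from which tRNAs are cut out, and the mRNAs released between them receive a short poly(A) tail in the organelle. mt-Cytb is the only subunit of complex III that the organelle encodes, and it passes electrons from ubiquinol towards cytochrome c. mt-Co1, mt-Co2 and mt-Co3 form the catalytic core of complex IV (cytochrome c oxidase), which hands electrons to oxygen. mt-Atp6 and mt-Atp8 are subunits of complex V, the ATP synthase, and are read from overlapping frames of 1 mRNA.

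mt-Co1 and mt-Cytb supplied nearly all of the data. mt-Co1 (ENSMUSG00000064351, MT:5328-6872 in GRCm38, plus strand) had 351 of its 367 cytosines covered by at least 20 reads in at least 1 library, and 333 in all 6. mt-Cytb (ENSMUSG00000064370, MT:14145-15288) had 295 of 308, and 272 in all 6. mt-Co3 (ENSMUSG00000064358, MT:8607-9390) had 56 of 197 cytosines in at least 1 library and none in all 6. For mt-Co2 (ENSMUSG00000064354, MT:7013-7696) 12 cytosines were listed, with at most 15 reads, and none reached 20. For mt-Atp6 (ENSMUSG00000064357, MT:7927-8607) and mt-Atp8 (ENSMUSG00000064356, MT:7766-7969) no cytosine was listed. No member position lay outside the annotated transcript of its gene.

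The 4 members with little or no data lie in a part of the mitochondrial genome that has a near-identical copy in the nucleus. A stretch of chromosome 1 (chr1:24611535-24616188 in GRCm38, in minus orientation) matched MT:6390-11042 at 99.9% of 4654 aligned bases. mt-Co2, mt-Atp8, mt-Atp6 and mt-Co3 were identical to this copy over 684, 204, 681 and 784 bases, their whole annotated lengths. The last 483 bases of mt-Co1 lie in it too and differed from it at 1 base, MT 6393. Over its whole length mt-Co1 also had a copy on chromosome 2 at 97.6% identity, and mt-Cytb had one on chromosome 4 at 92.8%. With every C read as T, as in a converted read, these identities were 98.8% and 97.6%. Since the study called cytosines from unambiguously aligned reads, reads that fit both places equally well would not be counted, but their part in the missing coverage was not tested. Along the copy on chromosome 1 itself, 0 to 2 cytosines per library in the orientation of the mRNAs were covered by at least 20 reads.

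Sequences of 30 bases (5′ to 3′, plus strand of GRCm38) are shown first. The windows of highest level and of highest coverage were chosen among those with several cytosines, all with at least 20 reads in each library. The others are places where the reads change abruptly. Capitals mark the cytosines with at least 20 reads in each of the 6 libraries, or, in the last line, with at least 10.
mt-Co1, MT:5893-5922, highest coverage: ttattaCagCCgtaCtgCtCCtattatCaC
mt-Co1, MT:6619-6648, highest level: tgggCCtttCaggaataCCaCgaCgCtaCt
mt-Co1, MT:6468-6497, edge of coverage: CtatCaatgggagCagtgtttgCtatCata
mt-Cytb, MT:14514-14543, highest coverage: atagCCaCagCatttataggCtaCgtCCtt
mt-Cytb, MT:14167-14196, highest level: aCCCattatttaaaattattaaCCaCtCat
mt-Cytb, MT:15155-15184, end of the converted reads: aattgggggCCaaCCagtagaaCaCCCatt

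The level of a cytosine, here the share of unconverted reads in percent, was bound to differ between these windows by the way they were chosen, and their reads show in which part of the share the difference lay. In the mt-Co1 window of highest coverage the pooled level was 0.207%, 0.159%, 0.172%, 0.194%, 0.322% and 0.161%. In the mt-Co1 window of highest level it was 20.6%, 31.4%, 17.9%, 24.7%, 46.7% and 24.6%. The first held a median of 48 to 137 unconverted and 29616 to 45494 converted reads per cytosine and library, and the second 18 to 49 unconverted and 41 to 115 converted reads. The mt-Cytb windows behaved alike. The deep one had pooled levels from 0.383% to 1.11% with 37.5 to 110.5 unconverted and 8082.5 to 11873.5 converted reads, and the other had levels from 37.4% to 70.5% with 16 to 51 unconverted and 14 to 38 converted reads. In all 4 windows the highest level was in 6 h replicate 1.

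Along both transcripts converted reads varied more widely than unconverted reads, as the plots of reads and of levels by base of the transcript show, although near the 3′ end of mt-Co1 the unconverted reads were fewer too. In mt-Co1 the middle 80% of positions held 20.8 to 92, 19 to 62, 27 to 91.8, 18 to 72, 50.8 to 174 and 18.4 to 87 unconverted reads in the 6 libraries. Converted reads over the same positions ran from 91.8 to 42933 in 0 h replicate 1 and from 63 to 41702 in 6 h replicate 1. In mt-Cytb the middle 80% of positions held 25 to 55 unconverted reads in 0 h replicate 1 and 51 to 111 in 6 h replicate 1, against 140.4 to 11737 and 22 to 9706 converted reads. Across positions, level and converted reads were ranked nearly in reverse (Spearman's rho from -0.97 to -0.95 in mt-Co1 and from -0.98 to -0.95 in mt-Cytb over the 6 libraries, with 338 to 343 and 272 to 295 positions). Both measures hold the converted reads and neighbouring positions share reads, so that these values are descriptions.

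**Figure D1:**
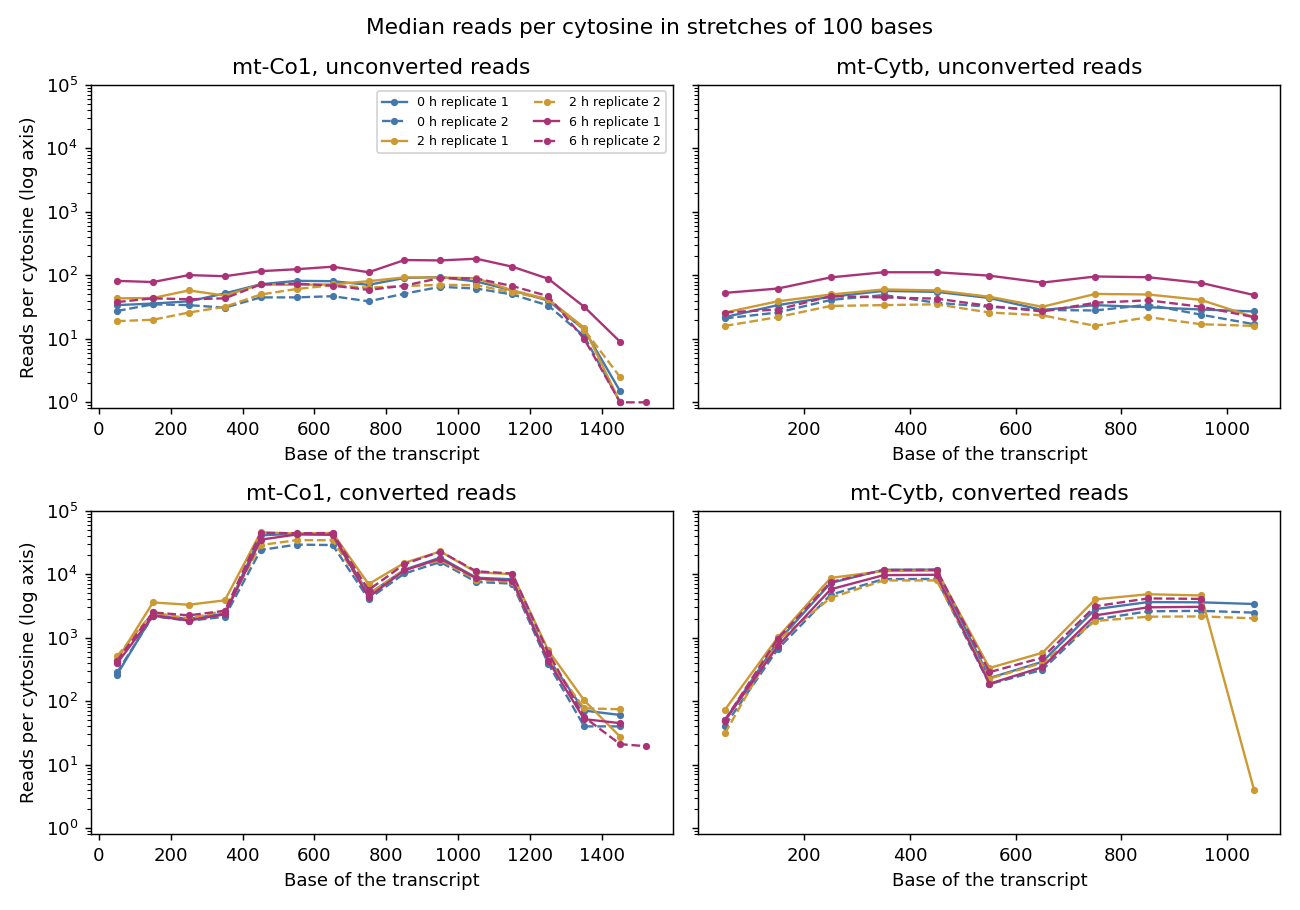
Median unconverted (upper row) and converted (lower row) reads per cytosine in stretches of 100 bases along mt-Co1 and mt-Cytb, on log axes of the same range, with 1 line per library. Converted reads vary over orders of magnitude along both transcripts, and unconverted reads vary far less, up to medians of 183 in mt-Co1 and 112 in mt-Cytb, apart from low values in the last stretches of mt-Co1, where few cytosines have 20 reads. Medians of 0, found in the last mt-Cytb stretch of both 6 h libraries, cannot be drawn on a log axis.

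In mt-Co1, the level was lowest in the middle and highest near the 3′ end. In bases 501 to 600, where coverage was highest as a median over the libraries, the pooled level was 0.208%, 0.167%, 0.173%, 0.197%, 0.332% and 0.178%. In bases 1301 to 1400 it was 15.5%, 21.1%, 12.8%, 15.9%, 37.8% and 15.4%, with a median coverage of 52 to 118 reads. After base 1400 few cytosines had 20 reads (2 to 8 per library up to base 1500), with a median of 1 to 9 unconverted reads, and the last one with 20 reads was MT 6838. Cytosines without an unconverted read are not listed, so the converted reads of the others there are unknown. mt-Cytb had 2 stretches of high level, bases 1 to 100 (23.2% to 44.4% over the libraries) and bases 501 to 600 (8.60% to 31.1%), around a stretch from base 301 to 500 in which no library exceeded 1.19%.

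**Figure D2:**
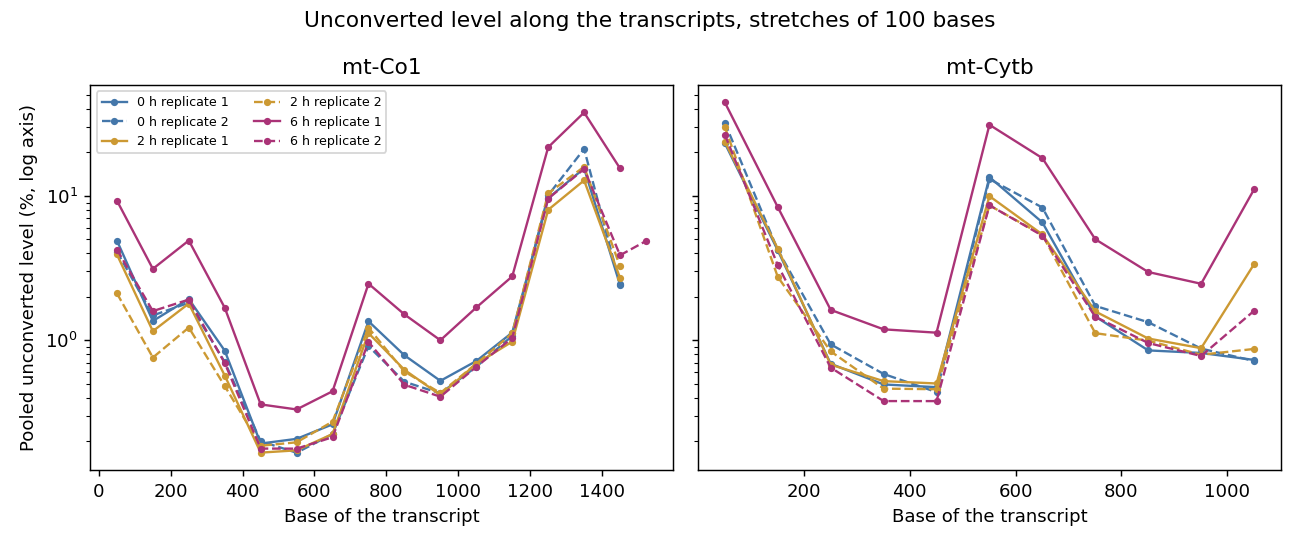
Pooled unconverted level in percent (log axis) in stretches of 100 bases along mt-Co1 and mt-Cytb, with 1 line per library. The 6 libraries trace similar profiles, except in bases 1001 to 1100 of mt-Cytb. There the level is 0.73% and 0.72% at 0 h, on 3 cytosines each, but 3.37% in 2 h replicate 1 (19 cytosines) and 11.1% in 6 h replicate 1 (23 cytosines). In every stretch in which it has a value, 6 h replicate 1 (solid purple) lies above the others.

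At MT 6481 in mt-Co1 the converted reads broke off within a few bases while the unconverted reads went on. At MT 6468 there were 7090 to 10230 converted and 52 to 131 unconverted reads over the libraries, and at MT 6481 there were 952 to 1335 converted and 42 to 137 unconverted reads. The level at the first was 0.729%, 0.728%, 0.556%, 0.711%, 1.63% and 0.660%. At the second it was 4.57%, 4.23%, 3.75%, 4.24%, 12.2% and 4.83%, higher in each library. MT 6481 lies 88 bases after MT 6393, the last base at which mt-Co1 differs from the chromosome 1 copy. Among the 604 positions with at least 4 covered neighbours within 25 bases, it was the only position whose level was at least 2-fold the median of its neighbours in all 6 libraries, and 597 stayed within 2-fold of theirs in every library.

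The 3′ end of mt-Cytb showed the same in its extreme form. MT 15152 had 1975 to 4359 converted and 16 to 74 unconverted reads, and a level of 0.622% to 2.57%. At the next cytosine, MT 15164, 12 bases on, there were 0 to 5 converted and 12 to 65 unconverted reads. From there to the last listed cytosine, 11 to 28 positions per library were listed. All of them were without a converted read in both 0 h libraries, 2 h replicate 2 and 6 h replicate 2, as were 26 of 28 in 6 h replicate 1, while 2 h replicate 1 had at most 5 converted reads at each. The levels of 100% at these positions rest on at most 22 reads, apart from 6 h replicate 1 with up to 66.

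Coverage was also set against the nuclear copies in each stretch of 100 bases, counting the bases that differ once C is read as T from the closest copy spanning it. The 9 mt-Co1 stretches with 0 differences had a median coverage of 20.5 to 8802 reads (median 2022). The 7 with 1 or more had 473 to 42819 reads (median 18020). In mt-Cytb, 1 stretch had 0 differences and 6603 reads, and the other 10 ranged from 73.5 to 10664 reads (median 1818). With a single stretch of 0 differences, no order can be given there. The part of the copies in the profiles was not tested.

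Codon position and the next base were examined in stretches of deep coverage and low level. Over bases 401 to 700 of mt-Co1 (84 positions of deep coverage) the median level over libraries was 0.195%, 0.185% and 0.192% at codon positions 1, 2 and 3. It was 0.188%, 0.191%, 0.203% and 0.188% before A, C, G and T. In mt-Cytb bases 301 to 500 (44 positions) the medians at the 3 codon positions were 0.499%, 0.494% and 0.480%, and before A, C, G and T they were 0.495%, 0.462%, 0.494% and 0.517%. Between the libraries the medians over all these positions spanned 0.170% to 0.344% in mt-Co1 and 0.377% to 1.14% in mt-Cytb, more than between the features.

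Positions were then counted by the thresholds that the study applies to candidate m5C sites (coverage of at least 20, level of at least 10% and at least 6 unconverted reads in both replicates), whose other filters were not applied here. At 0 h, 89 member positions passed (39 in mt-Co1 and 50 in mt-Cytb) of 2291 in all, at 2 h 75 (30 and 45) of 2234, and at 6 h 74 (27 and 47) of 2550. In 6 h replicate 1 alone, 216 would have passed, against 74 in 6 h replicate 2. Over the 3 time points, 93 positions passed at least once and 68 passed at all 3. mt-Co3 had 0 passing positions, with 1 to 8 covered in both replicates of a time point, and mt-Co2, mt-Atp6 and mt-Atp8 had none that could be judged. The passing positions lay in runs. At 0 h, 34 consecutive cytosines of mt-Co1 passed over 108 bases (MT:6581-6688) and 26 of mt-Cytb over 74 bases (MT:14645-14718). Of the 89, 98.9% had another passing position within 10 bases, against 85.2% of the 1483 passing nuclear positions. All passing members of mt-Co1 and mt-Cytb had a coverage below 1000, and the deepest averaged 357 reads over the replicates.

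In each gene, the pair of positions with the highest mean level, among those with 20 reads in every library, lay close together. mt-Co1 MT 6593 had levels of 23.8%, 29.3%, 19.5%, 36.3%, 47.4% and 29.2%, on 99 to 205 reads. MT 6598 had 22.8%, 27.8%, 19.1%, 36.5%, 47.6% and 29.6%. In both, 6 h replicate 1 was highest and its replicate lay within the range of the earlier libraries. mt-Cytb MT 14189 had 40.4%, 58.8%, 41.5%, 54.8%, 76.8% and 58.7%, on 31 to 69 reads, and MT 14190 had 40.4%, 60.0%, 40.6%, 53.3%, 75.4% and 56.8%. At all 4 positions the levels of 0 h and 2 h overlapped, and the replicates of each time point lay apart.

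The question of the design was whether depolarization changed the level of single sites. The reads of both replicates were summed, and the 93 member positions were tested along with all other sites (Fisher's exact test, two-sided), with Benjamini-Hochberg adjustment over 2824 to 2927 sites per comparison. Members were called higher at 6 h alone. In the early comparison, 0 of 93 rose, against 7.72% of all sites tested, and 1 fell, against 1.74%. In the full comparison, 21 of 93 rose (9 in mt-Co1, 12 in mt-Cytb), against 5.32% of all sites, and 0 fell, against 1.9%. In the late comparison, 64 of 93 rose (29 and 35), against 6.05%, and 0 fell, against 5.67%. The 64 include MT 15164 and MT 15165 at the end of mt-Cytb, whose level was 100% in both 0 h and both 6 h libraries. They passed the site thresholds at 6 h alone, since coverage was below 20 reads in both 0 h libraries and 2 h replicate 2. Their late rise rests on 5 converted reads at each in 2 h replicate 1, so they support none. The comparisons share libraries, and neighbouring members share reads.

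These calls depended on which libraries were included, above all on 6 h replicate 1. Without it 0 of 93 member positions were called in the full comparison and 0 in the late one, and without 6 h replicate 2 the calls were 78 and 88. Without 0 h replicate 1 there were 2 calls in the full comparison, and without 2 h replicate 1 there were 32 in the late one. The single early call, in mt-Cytb, was lost when any of the 4 libraries was left out, and without 2 h replicate 1 there were 5 calls in mt-Co1 instead. The levels of the 2 time points compared did not overlap at 37, 4 and 12 of the 93 positions in the early, full and late comparison, against 31.7%, 21.2% and 20.5% of all sites, and at 1, 2 and 11 of the called ones. limma on the log2 ratio of unconverted to converted reads, which uses the spread between replicates, called 0 of 93 members in each comparison (0, 0 and 4 at an unadjusted p under 0.05), and 0% of all sites in each.

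Few called positions had time points without overlap. In the early comparison mt-Cytb MT 14713 fell from 15.2% and 13.7% to 9.48% and 8.09% (adjusted p = 0.0271 by Fisher's exact test and 0.804 by limma). It passed the level minimum of 10% at 0 h and at no later time point, so that the choice of sites favoured a fall, as it did for any site that entered through 0 h alone, and the early counts are no support for one. mt-Co1 MT 6598 and MT 6581 rose in the full comparison, the second from 10.8% and 12.3% to 23.4% and 12.8% (adjusted p = 0.0138 and 0.0188 by Fisher's exact test, 0.998 by limma for both). In the late comparison the largest rises among such positions were 19.8 percentage points at mt-Cytb MT 14194, 19.6 at MT 14189 and 19.1 at MT 14190. MT 14194 went from 33.8% and 47.1% to 66.2% and 54.2% (adjusted p = 0.00812 by Fisher's exact test and 0.801 by limma). In each rise 6 h replicate 1 was the highest of the 6 libraries.

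**Figure D3:**
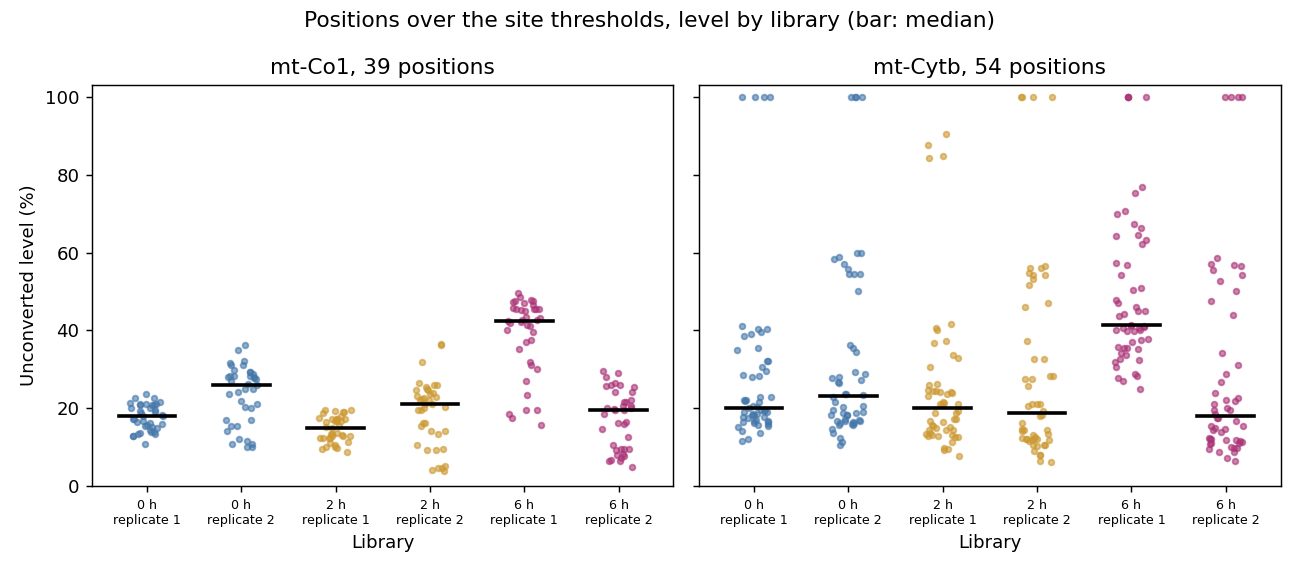
Unconverted level in percent of the 39 mt-Co1 and 54 mt-Cytb positions that passed the site thresholds at 1 or more time points, by library, with the median as a bar. The medians of 6 h replicate 1 are 42.3% and 41.4%, above those of the other 5 libraries (14.9% to 25.9% in mt-Co1 and 18.1% to 23.1% in mt-Cytb). The points near 100% in mt-Cytb are the 4 positions from MT 15164 to MT 15169.

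Summed over each gene, the level in 6 h replicate 1 again exceeded that of every other library, and the other 5 were close together. mt-Co1 had a level of 0.451%, 0.429%, 0.415%, 0.431%, 0.914% and 0.398%. mt-Cytb had 1.02%, 1.19%, 1.14%, 0.996%, 2.90% and 0.921%. The 95% Wilson intervals, which cover counting error only, were narrow (0.905% to 0.923% for mt-Co1 in 6 h replicate 1). In limma over 1607 genes, the full comparison gave a change in the log2 ratio of 0.46 (SE 0.34, adjusted p = 0.518) in mt-Co1 and 0.55 (SE 0.44, adjusted p = 0.546) in mt-Cytb, beside a median of 0.19 over all genes. The late one gave 0.52 (adjusted p = 0.539 by limma) and 0.62 (adjusted p = 0.577), and the early one -0.06 and -0.07 (adjusted p = 0.995 for both). The shares of all genes called were 0.187% in the early, 0.56% in the full and 0% in the late comparison (174 genes in the last at an unadjusted p under 0.05), and neither member was called in any of them.

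Without 6 h replicate 1, the full comparison gave a change of -0.14 in mt-Co1 and -0.27 in mt-Cytb. Without 6 h replicate 2 it was 1.06 and 1.37 (adjusted p = 0.021 for both by limma), with 254 genes called. Each of these fits leaves a single 6 h library, which is assumed to vary like the other groups. The difference lay in the unconverted reads. Over the 605 positions shared by all libraries, 6 h replicate 1 had 61587 unconverted reads against 21809 to 32807 in the other 5, and 4954706 converted reads against 3816757 to 6050726. It had the highest level at 603 of the 605 positions. The pooled level of all members was 2.54-fold that of 6 h replicate 2 and 2.28-fold the median of the other 5 libraries. For complex I mRNAs these ratios were 2.89 and 1.83, with 6 h replicate 2 the lowest library. For nuclear-encoded mRNAs of the same complexes they were 1.44 and 1.47. For rRNAs both were 1.33, but 6 h replicate 1 (0.519%) lay within the range of the other 5 (0.287% to 0.558%). The unconverted share at deep cytosines of low level on all chromosomes had ratios of 1.33 and 1.36 (0.115% against 0.0869%, and 0.0837% to 0.0869% in the other 5 libraries). What part this higher unconverted share had in the members' levels was not tested.

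Coverage of the mRNAs was compared as the mean coverage per cytosine, per 1000000 reads of the summed coverage of a library. It is a share of each library and not the amount of RNA recovered from a culture. A change in the mix of cells and a change within cells cannot be told apart in it. mt-Co1 had 6.32, 5.75, 6.36, 5.77, 5.68 and 6.57. mt-Cytb had 1.74, 1.58, 1.72, 1.26, 1.39 and 1.73. In both genes the values of the time points overlapped. mt-Co1 was 3.63-fold to 4.57-fold above mt-Cytb in each library, and ranked 47 and mt-Cytb 661 of the 1607 genes. Since only uniquely placed reads count and depth ended below 50000 reads in every library (0 to 60 mt-Co1 positions were over 40000), this order is of the recorded coverage.

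In the full comparison the change in log2 coverage was 0.02 (SE 0.13, adjusted p = 0.921) in mt-Co1 and -0.09 (SE 0.12, adjusted p = 0.522) in mt-Cytb by limma, while the median over all genes was -0.15. Relative to that median, with median-of-ratios scaling, the changes were 0.17 and 0.06 (adjusted p = 0.213 and 0.801). In the early comparison the changes were 0.01 and -0.17 (adjusted p = 0.983 and 0.372 by limma), and in the late one 0.01 and 0.07 (adjusted p = 0.959 and 0.634). Neither gene was called, against 17.9%, 53.6% and 43.4% of all genes in the early, full and late comparison. Without 2 h replicate 1, the early change in mt-Cytb was -0.39 (adjusted p = 0.041 by limma), with a lone 2 h library that is assumed to vary like the other groups. Of the other mitochondrial RNAs, both rRNAs, which the organelle's ribosome is built on, rose in the early (log2 change 0.44 in mt-Rnr1 and 0.66 in mt-Rnr2) and in the full comparison (0.74 and 0.70). Of the 4 complex I mRNAs tested (mt-Nd1, mt-Nd2, mt-Nd4 and mt-Nd5) 0 were called. The astrocyte marker Slc1a3, a glutamate transporter, fell by 0.45 in the full comparison, and its part in the coverage of the members was not tested.

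**Figure D4:**
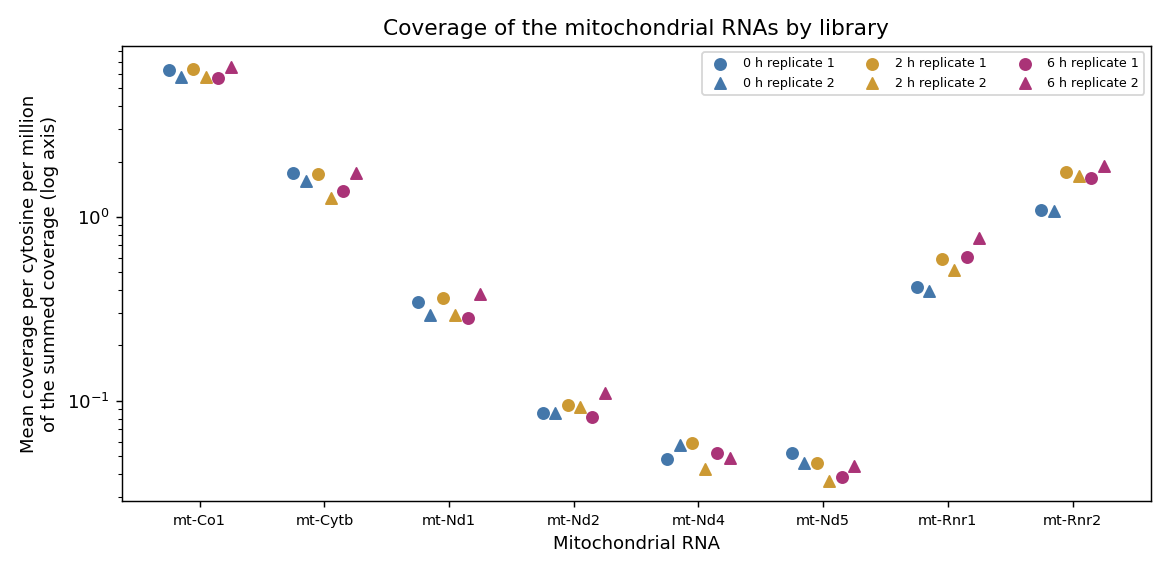
Mean coverage per cytosine per 1000000 of the summed coverage (log axis) of the mitochondrial RNAs with enough covered cytosines, by library (circles replicate 1, triangles replicate 2). mt-Co1 and mt-Cytb overlap between time points, and both rRNAs are lower at 0 h than at 2 h and 6 h.

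The members' level was set beside that of 3 other groups of RNA in the same 6 libraries by an exact sign-flip permutation test (two-sided, smallest possible p = 0.03125). All members pooled had 0.555%, 0.568%, 0.545%, 0.517%, 1.25% and 0.491%. Complex I mRNAs, whose subunits feed electrons from NADH into the chain, had 10.4%, 9.43%, 8.55%, 9.72%, 17.3% and 5.99%, higher in 6 of 6 libraries (mean difference of members minus complex I -9.58 ± 3.52 percentage points, SD, n = 6, exact adjusted p = 0.03125). Their median coverage was 78 to 119 reads, against 2179 to 3775.5 for the members, and their median unconverted reads were 16 to 32 per cytosine, against 28 to 96. The members and complex I thus differed more in converted than in unconverted reads. The size of the difference in level depended on the measure. It was -1.81 ± 0.69 percentage points without positions of at least 10% in any library, and -18.1 ± 5.88 with the median over genes (SD, n = 6, exact adjusted p = 0.03125 and 0.047).

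Nuclear-encoded mRNAs of complexes III, IV and V were listed under 35 gene names, of which Atp5f1 and Atp5pb are synonyms, and 34 had covered cytosines. They had levels of 0.0975% to 0.150%, below the members in 6 of 6 libraries (mean difference 0.544 ± 0.272 percentage points, SD, n = 6, exact adjusted p = 0.03125). Their median coverage was 2753 to 3711 reads, a range that overlaps that of the members. A median of 3 to 4 unconverted reads was found per nuclear cytosine. Mitochondrial rRNAs had 0.550%, 0.558%, 0.287%, 0.357%, 0.519% and 0.391%. The members were higher in 6 of 6 libraries (mean difference 0.210 ± 0.270 percentage points, SD, n = 6, exact adjusted p = 0.03125), but the values nearly met in both 0 h libraries. Without 6 h replicate 1 the mean difference was 0.107 ± 0.106 percentage points (SD, n = 5), with 5 libraries too few to pass the test, and with the median over genes in place of pooled reads the call was lost (0.231 percentage points, exact adjusted p = 0.281).

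**Figure D5:**
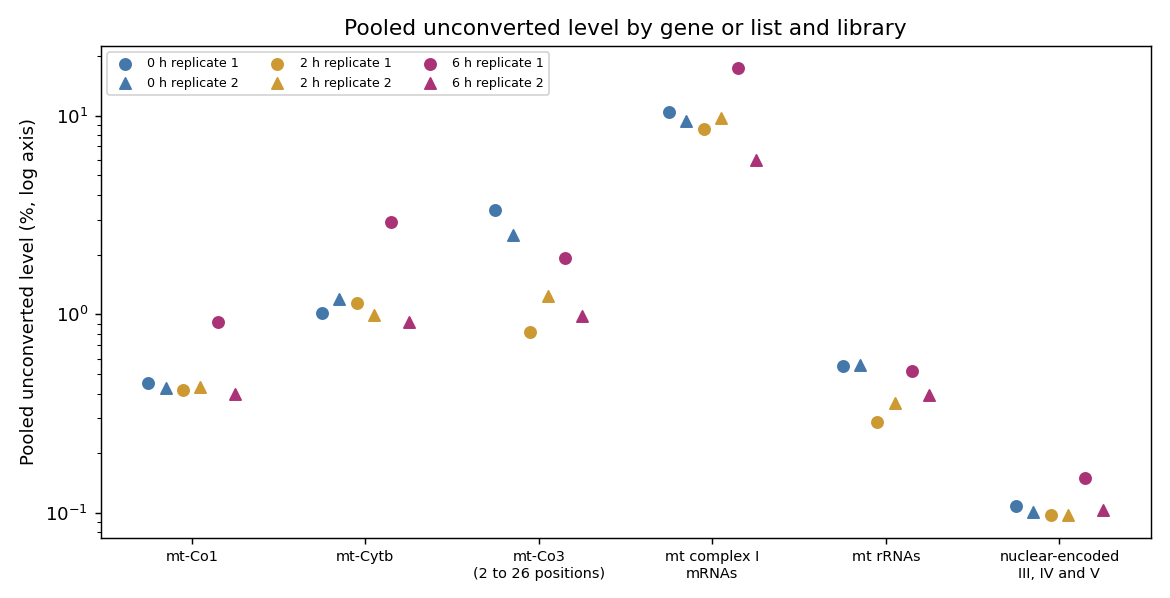
Pooled unconverted level in percent (log axis) of mt-Co1, mt-Cytb and mt-Co3, the mitochondrial complex I mRNAs, the mitochondrial rRNAs and nuclear-encoded mRNAs of complexes III, IV and V, by library. In mt-Co1, mt-Cytb, complex I mRNAs and nuclear-encoded mRNAs the value of 6 h replicate 1 is the highest of the 6.

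Each transcript was divided into 3 parts of equal length, and the first and the last part were compared by the same exact test. mt-Co1 had a pooled level of 0.521% ± 0.234 (SD, n = 6) in its first part and 1.74% ± 0.86 in its last, higher in 6 of 6 libraries (exact p = 0.03125, adjusted over the 2 transcripts with data 0.0625). The last part was also higher with the median of positions and without positions of at least 10%, by 7.36 and 0.47 percentage points (exact adjusted p = 0.03125 for both). Median coverage in these parts was 2180 to 3673 and 427 to 677 reads, and the median unconverted reads were 27.5 to 95 and 35 to 89.5. mt-Cytb had 1.21% ± 0.53 and 1.34% ± 0.93, higher in the last part in 3 of 6 libraries (exact adjusted p = 0.781). With the median of positions it was lower in 6 of 6, and without positions of at least 10% higher in 6 of 6 (exact adjusted p = 0.03125 for both), so no order of these parts is given.

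mt-Co3, a core subunit of complex IV, could only be described. In the 6 libraries, 2, 6, 24, 11, 26 and 19 of its cytosines were covered by 20 reads, all between MT 8668 and MT 8940, with at most 132 reads. Each carried a median of 1 to 1.5 unconverted reads. Its pooled levels of 3.33%, 2.50%, 0.815%, 1.23%, 1.91% and 0.985% are upper values, because a cytosine without any unconverted read is not listed, and their Wilson intervals were wide (1.14% to 9.35% in 0 h replicate 1). The same limit applies to every level given here, though it touches mt-Co1 and mt-Cytb little, where nearly all cytosines were listed.

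Of nuclear genes that act with the members, 33 of 35 listed gene names of complexes III, IV and V were tested. In level 0 were called in any comparison, against 0.187%, 0.56% and 0% of all genes in the early, full and late one. Their median log2 change in level was 0.23 in the full and 0.31 in the late comparison, beside 0.19 over all genes in both. In coverage 0 were called in the early comparison, against 17.9% of all genes. In the full one 6 fell and 0 rose, and in the late one 5 fell and 1 rose. Of all 1607 genes, 608 fell and 254 rose in the full comparison, and 519 fell and 178 rose in the late one. The median log2 change in coverage of the listed genes was -0.15 in the full comparison, as it was over all genes. Of 19 listed names of genes for handling mitochondrial RNA (Tbrg4 and Fastkd4 are synonyms), such as the RNA polymerase gene Polrmt and the RNA-stabilising factor gene Lrpprc, none reached the coverage required.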

How the data were processed

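Reads were trimmed by the authors, and meRanTK was used for alignment to GRCm38 (mm10) and for calling cytosines from unambiguously aligned reads. They deposited, per library and listed position, counts (reads covering the cytosine, unconverted reads and reads with another base) and the level as a fraction. The counts were used as deposited, and the fraction only to check them. Listed positions had at least 10 reads and 1 unconverted read. Summed coverage was 1637706778 to 2352246636 per library.

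Members, gene lists and tests were chosen with earlier results of these data known. Named positions were the 2 of highest mean level per member and, per comparison, up to 3 rises and 3 falls among called members with no overlap of replicates. Sites had to pass the site thresholds at 1 time point and have 10 reads in the 4 libraries compared. Genes needed 20 cytosines with 20 reads in all libraries, and a pseudocount of 0.5 was added to their reads. Adjusted p of 0.05 was the threshold. Spans came from GENCODE M21 and nuclear copies from blastn 2.17.0. The tests were tried on simulated data with known changes. Site reads were drawn there without added spread between replicates, so how the calls bear such spread was not tested. Python 3.11.15, scipy 1.17.1, R 4.3.3 and limma 3.58.1 were used, and the submitters' processing notes name R 4.1.1. PCR copies were not separated from molecules. A site that the study's list gives the identifier of mt-Co3 lies in mt-Rnr1 in the deposited calls and the annotation, and was not a member. The caller's own p-values and scores were not used. Alternatives covered other filters, scalings and summaries, a replicate block, and each library left out in turn.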

Additional observations from a re-analysis of the deposited data

How the results depend on the processing

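The unweighted mean over positions gave levels of 4.50% for mt-Co1 and 9.54% for mt-Cytb, against 0.506% and 1.36% with pooled reads, because positions of low coverage then count as much as deep ones. At a minimum level of 20%, the numbers of passing member positions were 33, 21 and 41 by increasing time, and with minimums on summed reads 195 passed at 6 h. With 1 library left out, 74 to 216 passed at 6 h. Called member sites (1, 21 and 64 in the early, full and late comparison) ranged from 0 to 5, 0 to 78 and 0 to 88 when 1 library was left out. They were 3 in the early comparison at a coverage of at least 50 reads, 0 there with a difference of at least 10 percentage points, and 0 in every comparison by limma. With a replicate block, the Cochran-Mantel-Haenszel test called 1, 32 and 67 and limma 0, 0 and 0. Deviations of same-numbered libraries correlated at 0.07, 0.13 and -0.02 in gene levels and 0.45, -0.33 and -0.30 in coverage, so the samples may share no more than a number, and the block changed no call of mt-Co1 or mt-Cytb.

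Leaving out 1 library, the log2 change in level ran from -0.19 to 0.046 in mt-Cytb in the early comparison. In the full one it ran from -0.14 to 1.06 in mt-Co1 and -0.27 to 1.37 in mt-Cytb, and in the late one from -0.085 to 1.12 and -0.20 to 1.44. The change in coverage ran from -0.064 to 0.077 and -0.39 to 0.054 (early), from -0.087 to 0.12 and -0.25 to 0.066 (full), and from -0.094 to 0.12 and -0.15 to 0.30 (late) in mt-Co1 and mt-Cytb. It turned sign for mt-Co1 with the median over positions (-0.050 in the full and -0.21 in the late comparison) and without positions over 40000 reads, a setting chosen after seeing the data (-0.015 and -0.076), and for mt-Cytb with median-of-ratios scaling (0.056 in the full comparison), each time without a call. Members against rRNAs gave 0.23 percentage points with the median over genes. Leaving out each library in turn, chosen after seeing the data, gave -10.4 to -8.28 against complex I, 0.107 to 0.251 against rRNAs and 0.434 to 0.575 against nuclear-encoded mRNAs, and for the last minus the first part -0.028 to 0.187 in mt-Cytb, negative without 6 h replicate 1. With 5 libraries the smallest possible p is 0.0625, so these are values without a test. Last minus first part gave 7.36 (median of positions) and 0.47 percentage points (without positions of at least 10%) in mt-Co1, and -2.26 and 0.35 in mt-Cytb, all 4 past the threshold, so the order of the parts of mt-Cytb depends on the measure. The cause of these differences was not tested. The other 120 values kept their direction and side of the threshold, or stayed within 1.5 times a count or 1 SD. Depth limits mt-Co2, mt-Co3, mt-Atp6 and mt-Atp8, for which no comparison was possible.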

Other observations

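The strand opposite to the members was read too. Opposite mt-Co1, 115 to 164 of 249 cytosines per library were covered by at least 20 reads, with a median coverage of 436 to 970 reads, and opposite mt-Cytb 83 to 137 of 139, with 370 to 1181 reads. These cytosines carried a median of 1 to 8 and 1 to 7 unconverted reads, against 38 to 112 and 22.5 to 84 on the strand of the mRNAs. Their pooled levels were 0.134% to 0.550% opposite mt-Co1 and 0.278% to 0.535% opposite mt-Cytb, upper values, since cytosines without an unconverted read are not listed. The lowest of the 6 libraries was 6 h replicate 1 on both, while on the strand of the mRNAs it was the highest. Opposite mt-Co2 no cytosine reached 20 reads, and opposite mt-Co3 1 did in 1 library.

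Base pairing predicted for the mRNAs was set against level and unconverted reads across positions. Spearman's rho of level with pairing probability was 0.05 to 0.07 over 333 positions of mt-Co1 and -0.10 to -0.03 over 272 of mt-Cytb. With unconverted reads it was 0.05 to 0.12 in mt-Co1 and 0.14 to 0.42 in mt-Cytb, positive in all 6 libraries. These are descriptions, since neighbouring positions share reads.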
